A study of Danio rerio with 9 samples.

Results

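The change from 36 to 48 hours post fertilization (hpf) in zebrafish eyes exposed to ethanol was read from 2 of the 9 arrays of the series, titled 36 hpf ethanol and 48 hpf ethanol. The members were chosen by title, and every probe set other than the array's own controls was compared between them, 15502 of 15617 in all. Eyes were dissected from the embryos, and their RNA was labelled with biotin and hybridised to Affymetrix zebrafish arrays. The series holds 1 array per condition: an untreated sample at 24 hpf, called pretreatment, and a control and an ethanol sample at each of 27, 30, 36 and 48 hpf. No strain, genotype or number of embryos per array, and no dose or timing of the ethanol, is given in the sources used here. The study was concerned with Heat Shock Factor 1, which turns on chaperone genes when proteins misfold.

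The labels disagree about the earlier of the ethanol arrays. The title and the source name call it 36 hpf ethanol, but its treatment characteristic reads none, and the array titled 36 hpf control carries the characteristic ethanol. The 30 hpf ethanol array is also marked none. Across the 8686 probe sets above the median of an array at 36 or 48 hpf, log2 signals of the library labelled 36 hpf ethanol correlated at 0.97 with the 30 hpf ethanol array and at 0.95 with the 30 hpf control. The library labelled 36 hpf control correlated at 0.97 with the 30 hpf control and at 0.95 with 30 hpf ethanol. One gene outside the naming rule, slc16a9b, a member of the monocarboxylate transporter family, was chosen after its values were seen because it separates the arrays at every stage, so its values describe the arrays and are no evidence on which 36 hpf label is right. Its signal was 212, 240 and 236 at 27, 30 and 48 hpf under ethanol and 29.5, 40.8 and 40.1 in the controls, and it was 215 on the library labelled 36 hpf ethanol and 32.3 on the one labelled 36 hpf control. All directions below follow the titles. The counts over all probe sets and those of 7 gene lists were also made with the 36 hpf labels exchanged, and these are given with the results; for the other lists and for single genes the exchange is not shown.

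Between 36 and 48 hpf the zebrafish retina is on its way from a dividing epithelium to layered neurons, a passage not complete at 48 hpf. Ganglion cells leave the cell cycle earliest, amacrine, horizontal and bipolar cells follow, and photoreceptors, born from precursors that express the homeobox factor crx, start to make opsins and the proteins of the light response. Lens fibres fill with crystallins over the same hours, and muscle precursors around the eye build the extraocular muscles. Ethanol exposure of the embryo is known to cause small eyes and late or incomplete retinal differentiation in zebrafish.

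A signal is the brightness of a probe set. The authors had scaled the arrays to one level: with the top and bottom 2% of probe sets removed, each array averaged 125.02. Changes are differences of log2(signal + 5), so 1 unit is a 2-fold change and changes of dim genes are understated. With 1 array per condition the change from 36 to 48 hpf has no replicate check and no test, so a probe set was counted as rising or falling when it moved at least 2-fold and its brighter array lay above that array's own median (42.9 at 36 hpf and 45.2 at 48 hpf under ethanol). The eye markers pax6a, pax6b, six6b and crybb1 and the pigment gene dct lay between 386 and 4541 on every array. The other measured eye markers, rx1, rx2, six3b and cryaa, fell below that range on some or all arrays. The signal of rx1 was 17.17 and 10.96 at 36 and 48 hpf in the controls and 35.88 and 42.51 under ethanol. That of cryaa was 10.6 at 24 hpf. In whole eyes, fewer cells of a type and less RNA per cell cannot be told apart.

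Under ethanol 462 probe sets rose from 36 to 48 hpf (2.98%) and 198 fell (1.28%), against 409 (2.64%) and 179 (1.15%) in the controls. Among 8172 named genes, each read from its brightest probe set, 280 rose (3.43%) and 115 fell (1.41%) under ethanol, against 256 (3.13%) and 111 (1.36%) in the controls. These shares over all named genes are the background for the list counts below. The arms moved a similar number of genes, but 108 genes were counted as rising in both, which is 38.6% of the ethanol list and 42.2% of the control list. Of the falling genes 23 were shared, 20.0% of the ethanol list and 20.7% of the control list. The ethanol change exceeded the control change by at least 1 log2 unit for 336 probe sets (2.17%) and fell short of it by as much for 314 (2.03%). The changes of the 2 arms, which share no array, had a Pearson correlation of 0.43 across all probe sets. With the 36 hpf labels exchanged, 713 probe sets rose and 380 fell under ethanol, of which 368 and 109 were also counted by title, and the gaps numbered 898 and 660.

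Of the 280 named genes that rose under ethanol, 109 also gained at least 1 log2 unit in the controls, 75 gained between 0.5 and 1 there and 89 stayed within 0.5. The largest ethanol rise was fkbp5, a glucocorticoid-induced partner of Hsp90, from 11.8 to 169 under ethanol and from 9.62 to 10.7 in the controls. Next came irg1l, an immune response gene, from 5.19 to 73.3 (controls 3.44 to 5.41). The chloride channel gene clic5b went from 10.5 to 101 under ethanol and from 17.5 to 210 in the controls. Thus clic5b rose in both arms, and fkbp5 and irg1l were at or near background on every control array. Of the 15 largest ethanol rises, 7 were also counted in the controls: clic5b, pcp4l1, ciarta, samsn1a, prox1a, scg3 and irx4a. The other 8 were fkbp5, irg1l, hsp70.3, ccn2a, fosab, elf3, her7 and cebpd.

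**Figure D1:**
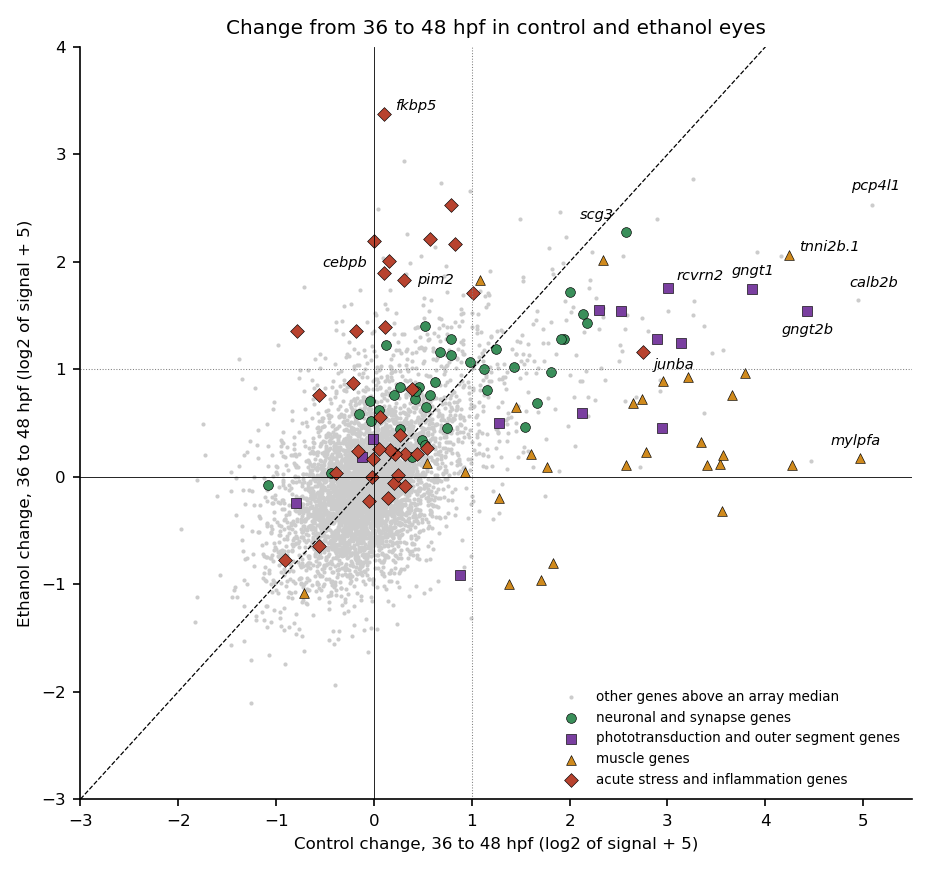
Each point is a named gene whose brightest array of the 4 lay above that array's median, placed by its change from 36 to 48 hpf in the controls (x axis) and under ethanol (y axis), both as differences of log2(signal + 5), with 1 array per condition. The dashed line marks equal change and the dotted lines a 2-fold rise; many muscle genes lie far to the right near an ethanol change of 0, several phototransduction genes to the right and below the line, and stress genes such as fkbp5 above it.

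The photoreceptor fate list held transcription factors and the growth factor gene gdf6a. Of its 14 measured genes, 3 rose from 36 to 48 hpf under ethanol: crx, otx5 and six7. In the controls 4 rose: crx, otx5, rorab and rxrga. The signal of crx, the master regulator of photoreceptor genes, was 276 at 36 hpf and 612 at 48 hpf under ethanol and 347 and 755 in the controls. For six7, which sustains green and blue cone opsins in zebrafish, the values were 213 and 451 under ethanol and 241 and 485 in the controls. These 2 regulators gained almost the same amount in both arms: the log2 change of crx was 1.13 with ethanol and 1.11 without, and that of six7 was 1.06 and 1.00. The Crx relative otx5 went from 46.9 to 134 under ethanol and from 86.1 to 277 in the controls, log2 changes of 1.42 and 1.63 from a lower start under ethanol.

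Among the other fate factors neither arm was consistently ahead. The cone nuclear receptor gene rxrga went from 64.3 to 101 under ethanol and from 77.6 to 238 in the controls, and rorab from 69.3 to 93.5 and from 69.6 to 188. The rod determinant nr2e3 moved by 0.35 under ethanol and 0.46 in the controls, and it was lower with ethanol at both stages, 141 and 181 against 239 and 331. The early factors neurod1 and tbx2b, which precede opsin expression, stayed bright in both arms, between 304 and 856. Of the 14 fate factors 12 had an ethanol change above 0 and 8 a control change above 0, and no member differed between the arms by 1 log2 unit or more. The genes rxrga and rorab, counted as rising in the controls only, came close to such a gap, with the control change the larger. Over the list the median of ethanol change minus control change was 0.02. Their median change was 0.38 under ethanol and 0.48 in the controls, and over all named genes the medians were 0.01 and 0.03.

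Genes of the light response rose less often under ethanol. Of 38 measured phototransduction and outer segment genes, 4 rose under ethanol (rcvrn2, gngt1, gngt2a and pde6ha) and 10 rose in the controls, the same 4 among them. None was counted as falling in either arm. For 8 of the 38 the ethanol change was lower than the control change by at least 1 log2 unit, a gap found in 2.21% of named genes, and no member had a gap of that size in the other direction. The counts were 3 under ethanol and 10 in the controls with the 36 hpf labels exchanged. The median change of all 38 was 0.40 under ethanol and 1.05 in the controls, but 24 of the 38 did not exceed the median of their brighter array in either arm, so most of these genes were still near background at 48 hpf. Without the filter on dim probe sets, 11 rose under ethanol and 20 in the controls.

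The 4 counted as rising under ethanol did not reach control levels. Recoverin 2 (rcvrn2), a calcium sensor of the photoreceptor, went from 58.3 to 208 under ethanol and from 70.4 to 602 in the controls. The cone transducin gamma gene gngt2a went from 127 to 378 and from 122 to 725, and the cone phosphodiesterase inhibitor pde6ha from 20.5 to 69.8 and from 37.1 to 202. The rod transducin gamma gene gngt1 went from 19.1 to 76.0 under ethanol and from 18.2 to 333 in the controls. At 36 hpf gngt2a and gngt1 were level between the arms, and at 48 hpf the ethanol signals stood at -0.93 and -2.06 log2 units relative to the control. A second probe set of pde6ha gave 0.30 under ethanol and 2.22 in the controls, so its ethanol rise rests on 1 of 2 probe sets. The same holds for rcvrn2, whose other probe set changed by 0.13 under ethanol and 0.80 in the controls.

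Other members, not counted under ethanol, ended far below the controls. Of these, gngt2b and gnat1 did move over 2-fold under ethanol but stayed below the median of the array. The paralogue gngt2b went from 8.41 to 34.0 under ethanol and from 6.92 to 251 in the controls. Rod transducin alpha (gnat1) went from 4.74 to 18 and from 4.15 to 75.5, and the retinoid carrier of the space between photoreceptors and pigment epithelium, rbp3, from 4.70 to 8.28 and from 3.85 to 63.0. The fatty acid elongase elovl4b, which makes the very long lipids of outer segments, went from 41.8 to 65.7 and from 65.9 to 305. In these 4 genes (gngt2b, gnat1, rbp3 and elovl4b) the ethanol signal at 48 hpf stood at -1.81 log2 units or lower relative to the control, and 3 of them had no array above its median under ethanol.

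The visual pigments were barely detectable. The ultraviolet opsin gene opn1sw1 went from 0.38 to 8.11 under ethanol and from 1.90 to 46.3 in the controls, which was the only array where it passed the median. The green opsin gene opn1mw1 read 2.60 and 2.42 under ethanol and 2.65 and 18.1 in the controls, and the red opsin gene opn1lw1 was 4.74 or less on all 9 arrays. Blue opsin opn1sw2 was brighter, at 55.0 and 26.7 under ethanol and 36.6 and 71.5 in the controls, but it already read 48.8 at 24 hpf, before photoreceptors form, so its probe set cannot be taken as a measure of blue cones. Cone transducin alpha (gnat2) read 17.7 and 16.4 under ethanol and 17.7 and 34.7 in the controls, below the median throughout. The rod opsin gene rho was not analysed here.

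**Figure D2:**
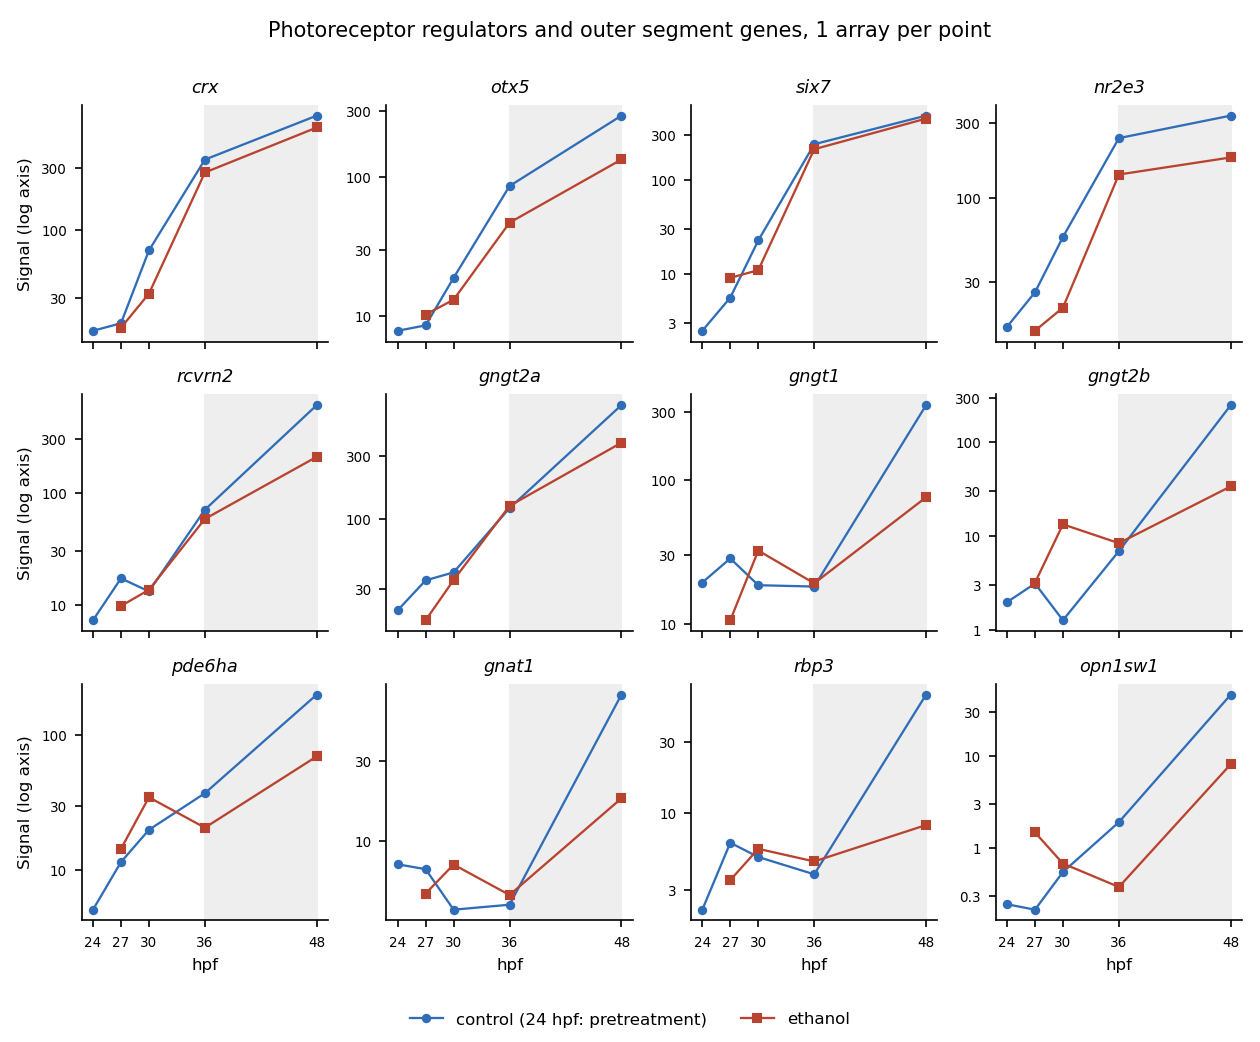
Signal on a log axis against hpf for 12 photoreceptor genes, controls in blue with the 24 hpf pretreatment array as their start, ethanol in red, 1 array per point, the 36 to 48 hpf interval shaded. The lines of crx and six7 end close together, those of otx5 and nr2e3 are lower with ethanol at 36 and 48 hpf, and those of gngt1, gngt2b, gnat1 and rbp3 separate within the shaded interval.

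Retinoid cycle genes were counted as rising more often in the controls. Of 18 measured retinoid genes, 2 rose under ethanol (rpe65a and rbp4) and 6 in the controls (also crabp1a, rbp2a, rgrb and rlbp1a), and the list medians were both 0.16. The isomerase gene rpe65a, which regenerates the chromophore in the pigment epithelium, went from 142 to 353 under ethanol and from 155 to 615 in the controls. The retinaldehyde-binding protein gene rlbp1a went from 143 to 204 and from 179 to 499, and the opsin-like isomerase gene rgrb from 135 to 157 and from 156 to 327. Retinol-binding protein rbp4 was the exception in level, higher with ethanol at both stages, from 218 to 530 against 98.5 to 391. Its fold rise was larger in the controls, and it is also a member of the list of yolk and liver plasma protein genes. None of 10 melanin and pigment cell genes was counted in either arm, and their median change was 0.23 under ethanol and 0.06 in the controls. The melanin synthesis gene dct moved from 1126 to 1224 under ethanol and the melanosome matrix gene pmelb from 754 to 815.

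Inner retinal genes rose in both arms. Of 36 measured amacrine, horizontal, bipolar and glial genes, 16 rose under ethanol and 11 in the controls, 9 of them in both, with medians of 0.88 and 0.79. With the 36 hpf labels exchanged, 11 rose under ethanol and 13 in the controls, so the order of the arms turns with the labels. The horizontal cell and lens regulator prox1a rose furthest, from 28.7 to 173 under ethanol and from 33.1 to 102 in the controls. The amacrine factor barhl2 went from 247 to 807 and from 341 to 775, and tfap2b, another amacrine factor, from 129 to 403 and from 246 to 558. The transporter that loads GABA and glycine into vesicles, slc32a1, went from 143 to 428 under ethanol and from 160 to 519 in the controls. All of them ended within 1 log2 unit of the control at 48 hpf.

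For 2 GABA synthesis enzymes the ethanol change was larger. The signal of gad2 rose from 25.7 to 84.6 under ethanol and went from 25.0 to 39.2 in the controls, and that of gad1b rose from 49.3 to 150 and went from 40.5 to 79.7. For 2 calcium-binding proteins of inner neurons it was smaller. Calretinin b (calb2b) went from 18 to 66.9 under ethanol and from 10.6 to 478 in the controls, and the parvalbumin pvalb6 from 19.6 to 50.9 and from 9.79 to 170. The bipolar cell G protein gamma gene gng13b went from 246 to 693 under ethanol and from 234 to 1592 in the controls. The gene pcp4l1 went from 78.9 to 480 under ethanol and from 26.0 to 1051 in the controls. So 3 of the 36 list members, calb2b, pvalb6 and gng13b, rose in both arms and yet fell short of the control change by over 1 log2 unit, as did pcp4l1 outside the list. The list as a whole had 5 members with such a shortfall and 2, lhx1a and slc1a2b, with an excess.

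General neuronal and synapse genes were counted in similar numbers in both arms. Of 44 measured, 15 rose under ethanol and 13 in the controls, 9 in both, with medians of 0.82 and 0.62, and 42 of 44 had an ethanol change above 0. Exchanging the 36 hpf labels gave 16 and 11. The secretory granule gene scg3 rose most, from 43.6 to 231 under ethanol and from 50 to 323 in the controls. The neuronal sodium pump subunit atp1a3a went from 90.8 to 311 and from 94.1 to 391, although its second probe set gave 0.69 under ethanol and 1.87 in the controls. Of the synaptic vesicle release genes, snap25b went from 178 to 517 under ethanol and from 160 to 720 in the controls, and the synaptophysin gene sypb from 61.2 to 173 and from 42.5 to 210. The RNA-binding protein elavl4, an early neuronal marker, rose from 42.3 to 106 under ethanol and went from 34.7 to 38.4 in the controls.

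Of 17 measured retinal ganglion cell genes, 5 rose under ethanol (isl1a, isl2a, robo2, sncgb and zic2a) and 2 in the controls (isl2a and robo2). A second probe set of isl1a changed by 0.47 under ethanol and 0.85 in the controls. The other probe sets of sncgb changed by 0.76 and -0.02 under ethanol and by 1.09 and 0.06 in the controls. The genes isl2a and zic2a are also members of the list of brain genes outside the eye. The axon guidance receptor robo2 went from 55.1 to 132 under ethanol and from 50.7 to 143 in the controls, and the LIM factor isl2a from 45.6 to 106 and from 64.3 to 185. The proneural factor atoh7, which is on only while ganglion cells are born, fell by 1.39 under ethanol, from 571 to 215, and went from 514 to 263 in the controls. Its earlier signals were 77.5 and 142 at 27 and 30 hpf under ethanol and 59.5 and 358 in the controls. At 30 hpf ethanol was therefore lower, and at 36 hpf the arms were level.

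In the lens, 2 of 9 measured crystallin genes rose under ethanol and 2 in the controls. The gamma crystallin crygm2c went from 17.8 to 68.1 under ethanol and from 27.9 to 67.2 in the controls, and crygs1 from 26.0 to 68.0 and from 40.6 to 80.8. The alpha crystallin gene cryaa, a small heat shock protein of the lens, went from 214 to 360 under ethanol and from 151 to 530 in the controls. The fibre filament gene bfsp2 rose from 271 to 647 and from 336 to 764. Thus only cryaa, among the lens crystallins, gained less under ethanol by over 1 log2 unit (0.74 against 1.78), and it was the higher of the arms at 36 hpf. The second alpha crystallin, cryaba, was 2.61 or less on all 9 arrays.

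Of 43 measured retinal progenitor genes, 3 rose under ethanol (rx3, meis2b and six7) and none fell, against 3 rising and 3 falling in the controls. Among all named genes 3.43% rose under ethanol, and 3.13% rose and 1.36% fell in the controls. The 3 that fell in the controls were notch3, ascl1b and dla, all of the Notch and proneural system. The Notch receptor gene notch3 went from 99.7 to 143 under ethanol and from 81.9 to 20.8 in the controls. The proneural factor ascl1b went from 471 to 578 and from 220 to 93.4, and the Notch ligand dla from 369 to 369 and from 252 to 121. The Notch target her6 went from 460 to 916 under ethanol and from 337 to 265 in the controls. All 4 lay above the control by at least 1 log2 unit at 48 hpf. The retina-wide factors pax6a, six6b and rx2 moved by 0.50 or less in either arm. The medians over the 43 genes were 0.22 under ethanol and -0.12 in the controls.

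Genes of DNA replication were among the falls of both arms. Of 71 measured cell cycle and replication genes, 12 fell under ethanol and 10 in the controls, none rose in either, and 67 of 71 had an ethanol change below 0. The medians were -0.61 and -0.64. Cyclin E1 (ccne1), which starts S phase, fell by 1.62 under ethanol, from 162 to 49.0, and went from 150 to 89.9 in the controls. The replication helicase gene mcm2 went from 795 to 329 under ethanol and from 965 to 433 in the controls, and mcm3 from 252 to 97.1 and from 314 to 133. The helicase partner gins1 fell further with ethanol, from 118.8 to 38.2 against 123 to 88.1. Geminin (gmnn), the licensing inhibitor, fell from 161 to 47.4 and from 145 to 65.9. The mitotic genes cdk1, plk1 and mki67, chosen after their values were seen, changed by -0.45, -0.46 and -0.26 under ethanol on their brightest probe sets. The other 2 probe sets of mki67 changed by -0.44 and -0.25 under ethanol and fell in the controls, with changes of -1.43 and -1.06. With the 36 hpf labels exchanged the same list gave 23 falls under ethanol and 2 in the controls.

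The largest fall of all under ethanol was etv5b, an ETS factor driven by Fgf signalling, from 254 to 55.2, and it fell in the controls too, from 158 to 63.2. Of the 15 largest ethanol falls, 5 were counted as falling in the controls (etv5b, tgm1l4, gmnn, wdr76 and msh6). The matrix protein gene thbs3a went from 127 to 29.5 under ethanol and from 81.6 to 60.9 in the controls. The RNase P subunit gene pop5 went from 132 to 39.2 under ethanol and from 108 to 104 in the controls. The neural crest gene crestin fell from 277 to 96 and went from 193 to 114.

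Regulators of the brain outside the eye moved apart. Of 50 measured, 10 rose and none fell under ethanol, and 3 rose and 4 fell in the controls. For 13 of the 50 the ethanol change exceeded the control change by at least 1 log2 unit, a gap found in 2.29% of named genes, and for none was it lower by as much. Exchanging the 36 hpf labels gave 17 rises under ethanol and 3 in the controls. The floor plate factor foxa2 rose from 43.8 to 99.5 under ethanol and fell from 43.1 to 13.6 in the controls, the only named gene counted in opposite directions. The ventral factor nkx2.2a rose from 51.7 to 127 under ethanol and went from 28.1 to 11.7 in the controls, and the forebrain factor lhx5 went from 107 to 206 and from 63.1 to 21.8. The oligodendrocyte and motor neuron factor olig2, which retinal progenitors also express, rose from 293 to 759 under ethanol and read 337 and 338 in the controls. In these 4 genes the arms lay closer together at 36 hpf than at 48 hpf. The summed signal of the 50 genes went from 3599 to 5994 under ethanol and from 2672 to 2433 in the controls, and over the earlier arrays it was 3232 and 4564 under ethanol and 3847 and 2364 in the controls at 27 and 30 hpf. The hindbrain gene egr2b was 4.09 or less on every array, and the midbrain genes en1b and en2a were 69.2 and 97.1 at 36 hpf and 94.1 and 94.8 at 48 hpf under ethanol, against 22, 31.4, 10.9 and 23.1 in the controls. The part of brain tissue in the neuronal and progenitor results was not tested.

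**Figure D3:**
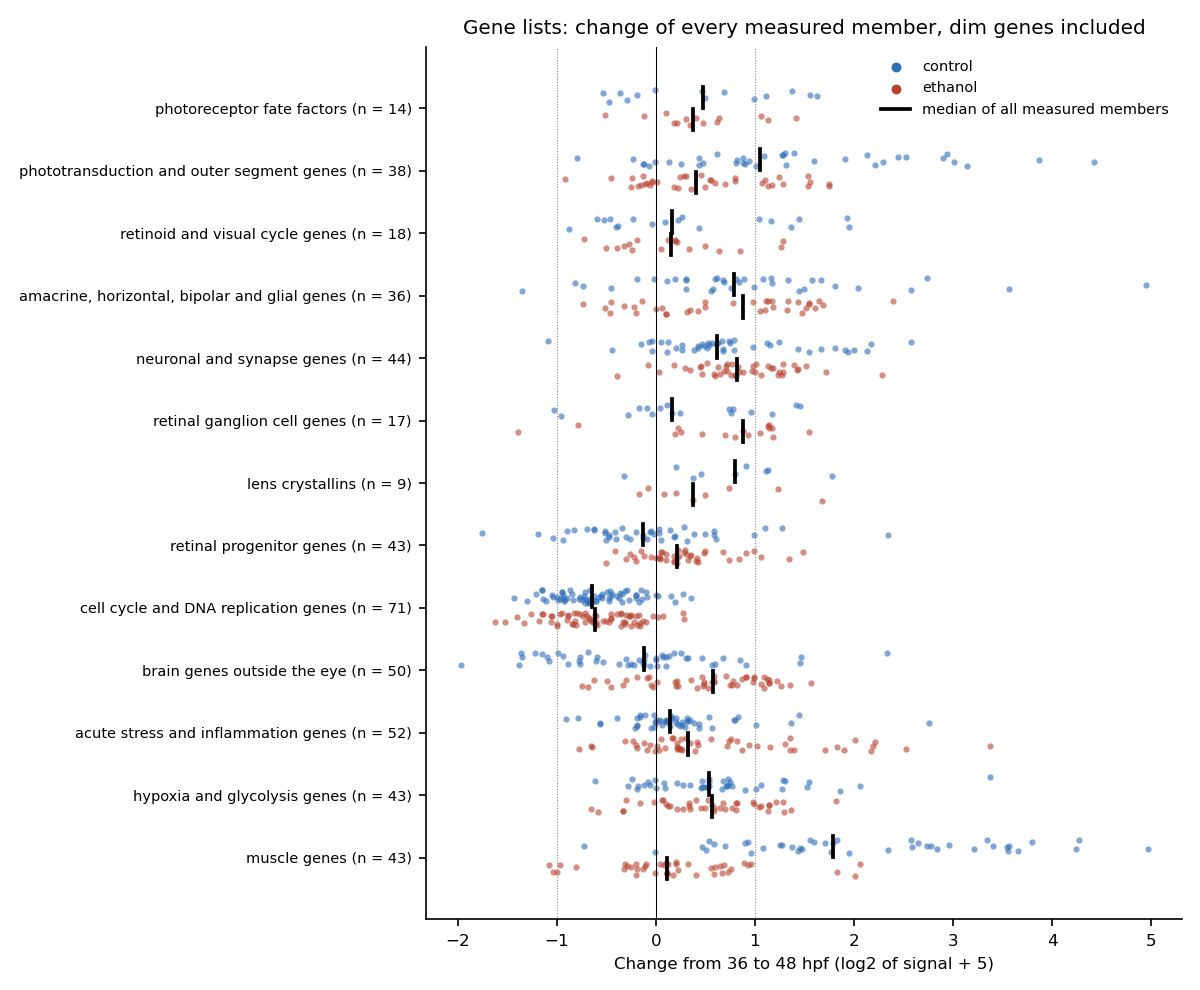
Change from 36 to 48 hpf of every measured member of 13 gene lists in the controls (blue) and under ethanol (red), as differences of log2(signal + 5) with 1 array per condition; black bars mark list medians and dotted lines a 2-fold change. Neuronal and cell cycle genes have similar medians in both arms, phototransduction and muscle genes lie further right in the controls, and brain genes further right under ethanol.

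Of 52 measured acute stress and inflammation genes, 13 rose under ethanol and 2 in the controls (junba and klf2a, both also counted under ethanol), and none fell. The ethanol change exceeded the control change by at least 1 log2 unit in 13 members, a gap found in 2.29% of named genes. Exchanging the 36 hpf labels gave 15 and 2 rises. The zinc finger gene klf9, which responds to glucocorticoids, went from 8.30 to 56.0 under ethanol and from 5.55 to 5.58 in the controls. The immediate early gene fosab went from 18.9 to 133 under ethanol and from 7.39 to 16.4 in the controls. The bZIP genes cebpb and cebpd, induced in the acute phase response, went from 48.8 to 212 and from 40.7 to 206 under ethanol and from 28.3 to 32.1 and from 20.2 to 32.5 in the controls, although a second, dimmer probe set of cebpd changed by -0.19 under ethanol. These genes were lower on every control array than on the 48 hpf ethanol array, and for cebpb and klf9 the 27 and 30 hpf ethanol arrays were also low, at 34.6 and 39.1 and at 5.82 and 7.66. The exception in the list was junba, which rose further in the controls, from 49.5 to 362 against 81.4 to 188. Of list members chosen after their values were seen, the amino acid response factor atf4a read 1435 and 1432 under ethanol and the oxidative stress gene gclm 115 and 97.9. Outside the list ppp1r15a, the eIF2alpha phosphatase partner, rose under ethanol on all 4 of its probe sets, by at least 1.40.

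Of 26 measured p53 and apoptosis genes, 4 rose under ethanol (mcl1b, gadd45ba, bbc3 and mdm2) and none in the controls. The shares over all named genes were 3.43% and 3.13%. The antiapoptotic gene mcl1b went from 333 to 1123 under ethanol and from 184 to 167 in the controls. The p53 targets mdm2 and bbc3, which restrain p53 and trigger apoptosis, went from 71.6 to 158 and from 39.0 to 100.5 under ethanol, and read 38.7 and 37.6 and 9.45 and 14.3 in the controls. Both p53 targets were already higher than the control at 36 hpf, by 0.81 and 1.61 log2 units.

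Of 39 measured chaperone genes, 2 rose under ethanol, hsp70.3 and hsp90aa1.1, and 3 in the controls, hsp90aa1.1, unc45b and cryaa. Over all named genes 3.43% rose under ethanol and 3.13% in the controls, and counts of 2 and 3 were not tested against these shares. The inducible hsp70.3 read 58.6, 102, 267 and 1806 at 27, 30, 36 and 48 hpf under ethanol and 53.8, 189, 325 and 525 in the controls, from 24.8 at 24 hpf. It was therefore the lower of the arms at 30 and 36 hpf and the higher at 48 hpf. Its probe set is of a type that may also bind related transcripts, so the hsp70 copies may not be told apart. The muscle chaperone partners hsp90aa1.1 and unc45b went from 31.0 to 80.2 and from 58.2 to 50 under ethanol, and from 43.7 to 157 and from 34.8 to 91.5 in the controls. The heat shock factor genes did not reach 2-fold: hsf2 went from 96.1 to 111 under ethanol, and hsf1 lay between 5.5 and 12 on all 9 arrays, near background. The factor hsf4 was not analysed here.

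**Figure D4:**
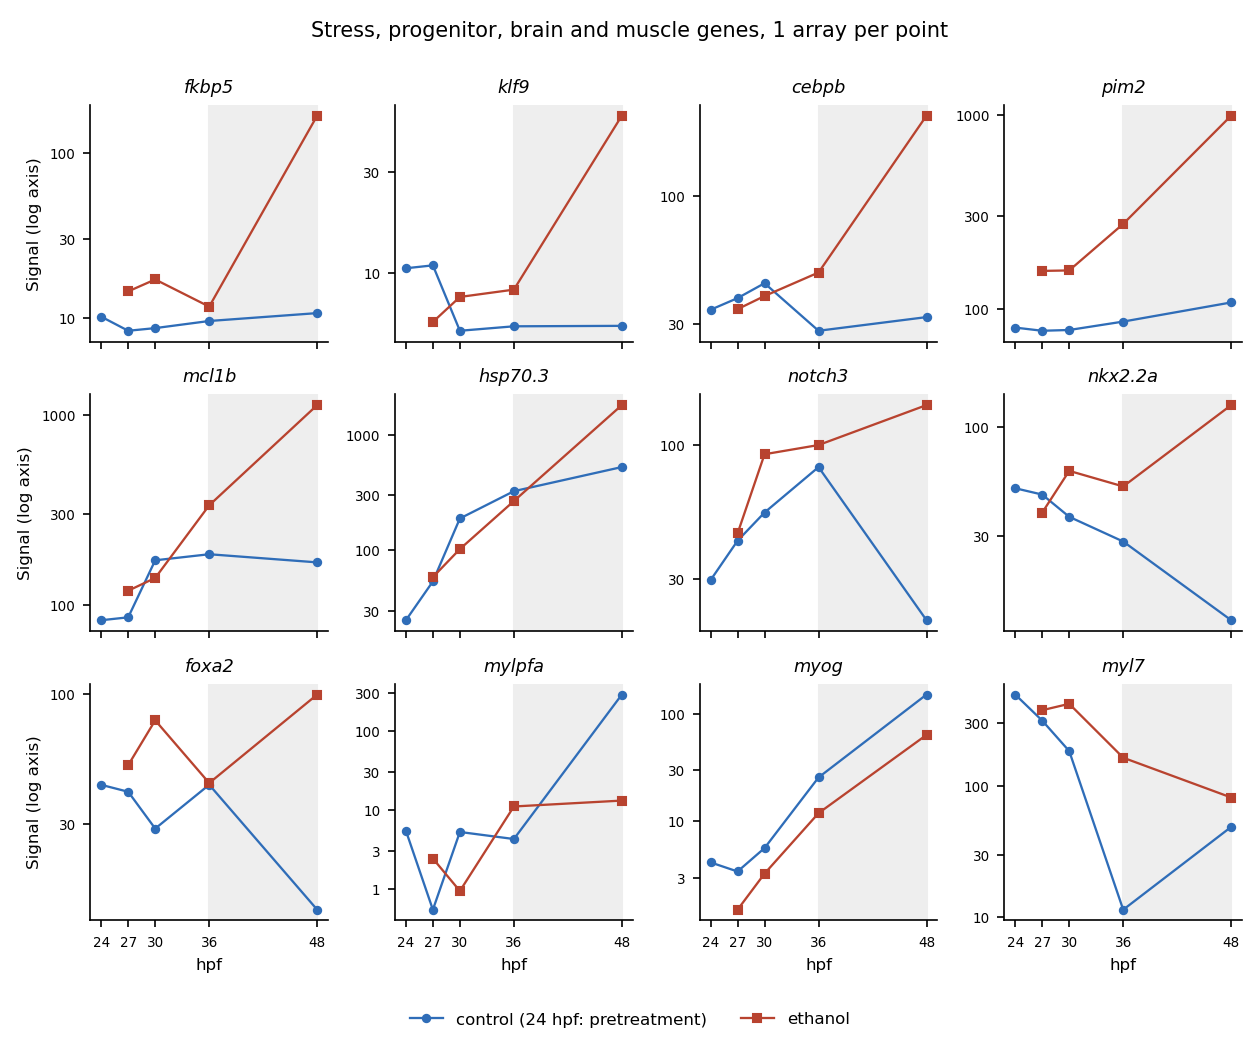
Signal on a log axis against hpf for 12 genes, controls in blue with the 24 hpf pretreatment array as their start, ethanol in red, 1 array per point, the 36 to 48 hpf interval shaded. Under ethanol fkbp5, klf9 and cebpb end higher than on any other array. The ethanol lines of notch3, nkx2.2a and foxa2 end high where the controls end low. For mylpfa the ethanol line ends near 13 and the control line at 285.

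Muscle genes stood furthest from the controls. Of 43 measured, 24 rose in the controls and 3 rose under ethanol (myod1, myog and tnni2b.1). For 22 of 43 the ethanol change was lower by at least 1 log2 unit, a gap found in 2.21% of named genes. With the 36 hpf labels exchanged, 21 rose in the controls and 7 under ethanol. The median change was 0.12 under ethanol and 1.79 in the controls. The myogenic factors rose in both arms: myod1 went from 15.3 to 67.3 under ethanol and from 33.9 to 77.1 in the controls, and myog from 11.9 to 63.4 and from 25.6 to 150. The contractile genes did not follow. Fast myosin light chain mylpfa read 11.1 and 13.1 under ethanol and 4.30 and 285 in the controls. A second, dimmer probe set of mylpfa changed by 1.27 under ethanol, too dim to be counted, and by 4.49 in the controls. Muscle creatine kinase ckma read 22.1 and 24.4 under ethanol against 7.93 and 145. Sarcomeric tnnc2.2, a troponin C, read 16.6 and 18.3 under ethanol and 8.51 and 256 in the controls. Only the troponin gene tnni2b.1 rose among them, from 13.7 to 72.8, against 14.6 to 365 in the controls. The heart genes myl7, tnnt2a and cmlc1 differed from these in level, with higher signals under ethanol than in the controls at both stages. They went from 164, 147 and 135 at 36 hpf to 81.6, 82.3 and 65.1 at 48 hpf under ethanol. In the controls they went from 11.4, 10.3 and 12.6 to 48.8, 49.1 and 40.9. Their ethanol change was therefore also lower than their control change. The summed signal of the list went from 2008 to 2338 under ethanol and from 1256 to 7057 in the controls. At 24, 27 and 30 hpf myl7 had read between 184 and 495 on every array. The summed signal of the list therefore mixes these heart genes with the other muscle genes. The tissue source of the muscle transcripts was not tested.

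Among 43 hypoxia and glycolysis genes, 9 rose in each arm. Those that rose under ethanol included ndrg1b, from 92.6 to 339 (controls 108 to 320), the glucose transporter slc2a3a, from 36.9 to 103 (controls 29.2 to 79.2), and the neuronal aldolase aldocb, from 589 to 1369 (controls 568 to 797). The muscle aldolase aldoab and gapdh, which rose in the controls from 14.4 to 196 and from 55.9 to 143, read 25.8 and 41.4 and 105 and 82.1 under ethanol. These last genes moved with the muscle list, and the part of muscle in them was not tested.

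Of 28 clock genes, 3 rose under ethanol and 5 in the controls. The repressor ciarta went from 68.3 to 399 under ethanol and from 69.2 to 273 in the controls, nr1d2b from 82.9 to 379 and from 76.4 to 277, and per2 fell from 186 to 72.9 and from 126 to 51.8. On their brightest probe sets the arms moved together in these 3. The other probe set of nr1d2b changed by 1.92 under ethanol and 0.44 in the controls. That of per2 changed by -0.33 under ethanol and 0.25 in the controls. The pineal and photoreceptor enzyme of melatonin synthesis, aanat2, read 6.55 and 20.9 under ethanol and 7.42 and 67.1 in the controls. The clock output regulator nfil3-6 went from 22.7 to 43.1 and from 21.3 to 194. Its other probe set changed by -0.07 under ethanol and 0.73 in the controls and was counted in neither arm.

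Of 49 matrix and periocular mesenchyme genes, 3 rose under ethanol (col2a1a, col9a3 and cnmd) and 5 in the controls. Type II collagen col2a1a went from 291 to 996 under ethanol and from 329 to 1523 in the controls. The cartilage matrix gene matn1 read 0.39 and 6.99 under ethanol and 0.50 and 55.5 in the controls. Among 26 blood and vessel genes the myeloperoxidase gene mpx, a neutrophil marker, was the only rise under ethanol, from 89.7 to 345 (controls 37.8 to 48.6), on 1 of its 4 probe sets. Of 37 yolk and liver plasma protein genes, 1 rose and 2 fell under ethanol, and 2 rose and 5 fell in the controls. Over all named genes 1.41% fell under ethanol and 1.36% in the controls. The gene afp4 fell from 99.6 to 36.1 under ethanol and from 72.6 to 16.9 in the controls. The summed signal of the 37 went from 3362 to 3176 under ethanol and from 2617 to 2505 in the controls. That sum includes rbp4, which rose in both arms, so it hides the falls of other members.

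Of the 256 named genes counted as rising in the controls, which were picked on the control arrays alone, 122 reached a 2-fold change under ethanol whatever their brightness, 69 gained between 0.5 and 1 log2 unit, 63 stayed within 0.5 and 2 fell by more than 0.5. Their median change was 1.53 in the controls and 0.97 under ethanol. Read the other way, the 280 ethanol rises had a median of 1.3 under ethanol and 0.75 in the controls, so a list picked on 1 arm moves less in the other arm in either direction, and neither list measures an effect of ethanol.

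A test was possible only over the whole time course. A line was fitted to each of the 9301 probe sets in the upper 60% by mean, with hpf, ethanol and their product as terms over all 9 arrays, by limma with Benjamini-Hochberg adjustment, which leaves 5 residual degrees of freedom. Nothing in the labels says that the arrays came from separate clutches, so the p-values measure only the spread of these arrays around straight lines, which may be technical. The ethanol slope passed an adjusted p of 0.05 upward for 1051 probe sets (11.3%) and downward for 1354 (14.6%). The slopes of crx, rcvrn2 and scg3 under ethanol were 2.77, 2.27 and 2.02 log2 units per 12 hours, with standard errors of 0.47, 0.23 and 0.25 and adjusted p of 0.0027, 0.0004 and 0.00082 (limma). Among the list members bright enough to enter the fit, 33 of 38 neuronal and synapse genes had a rising ethanol slope, 18 of 25 inner retinal genes, 7 of 14 photoreceptor fate factors and 4 of 10 phototransduction genes, and 32 of 69 cell cycle genes had a falling one. In that order the median slopes of these lists under ethanol were 0.82, 1.04, 1.09, 0.54 and -0.40 log2 units per 12 hours. In the controls they were 0.89, 0.79, 1.17, 1.19 and -0.34, so slopes of these directions were found in both arms. Without the 48 hpf ethanol array only 3 probe sets rose and 0 fell, and without the 27 hpf ethanol array 449 rose and 554 fell. These arrays stand at the ends of the ethanol course, so leaving either out also shortens the fitted range of hpf. The number of ethanol slopes called therefore depends on both.

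The slopes of the arms differed, by the same fit, for 7 probe sets that were steeper under ethanol (0.0753%) and 4 that were less steep (0.043%), with 1178 at an unadjusted p under 0.05. The named ones that were steeper under ethanol were nkx2.2a, pim2, ppp1r15a, cebpb, ptgs2a and mknk2b, of which mknk2b and ppp1r15a were called on a probe set that is not their brightest. The kinase gene pim2 read 157, 158, 274 and 988 at 27, 30, 36 and 48 hpf under ethanol and 77.0, 77.7, 85.9 and 108 in the controls. Its slope was greater under ethanol by 1.35 log2 units per 12 hours (standard error 0.17, limma adjusted p = 0.031). For nkx2.2a the difference was 1.69 (standard error 0.20, adjusted p = 0.029), and for cebpb 1.55 (standard error 0.23, adjusted p = 0.037). The prostaglandin synthase gene ptgs2a went from 48.9 to 157 over the last 12 hours under ethanol and from 34.6 to 26.9 in the controls, with a slope difference of 1.40 (adjusted p = 0.037). The mitochondrial protein gene tmem69 was the clearest in the other direction, from 32.0 to 7.70 under ethanol and from 35.8 to 41.6 in the controls, with a difference of -1.3 (adjusted p = 0.029). No phototransduction, photoreceptor fate or muscle gene was called for a difference of slopes, and 28 of the 38 phototransduction genes and 27 of the 43 muscle genes were too dim over the 9 arrays to enter the fit. Without the 24 hpf array, the 27 hpf ethanol array, the 30 hpf control array or the 48 hpf ethanol array, 0 probe sets were called in either direction.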

How the data were processed

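RNA from dissected zebrafish eyes was measured on 9 Affymetrix arrays, 1 per condition. The deposited intensities are linear signals from the authors' MAS5 step, per the submitters' processing notes. No version of it is given. The table used here has neither detection calls nor a genome build. The trimmed mean was 125.02 on every array, so values were used as deposited. MAS5 subtracts mismatch signals, which makes dim values noisy. The number of arrays limits the precision, and array signals have no counting depth.

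Of 15617 probe sets, 115 controls were left out. The platform annotation gave 10802 probe sets 1 symbol, 135 several and 4680 were not listed. Of the symbols, 10718 were updated by gene ID through a RefSeq table. Groups follow sample titles. Changes are differences of log2(signal + 5), counted at 2-fold with the brighter array above its median. Slopes on hpf with an ethanol interaction were fitted by limma 3.58.1 in R 4.3.3 to 9301 probe sets (lmFit and eBayes, Benjamini-Hochberg adjustment), after the fit had been tested on simulated data. The other steps used Python 3.11.15 with numpy 2.4.6, pandas 2.3.3 and matplotlib 3.10.9.

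The members and 24 gene lists were chosen with earlier results of these data known. Of 1251 list entries, 791 were measured. Lists may share genes. Genes were named by rule: the 15 largest rises and falls, the 10 largest gaps each way, per list the 5 largest counted changes and 3 largest gaps, the 5 smallest p each way for slope differences, and a set fixed by name. The tissue markers, mknk2b, ppp1r15a, sat1a.2 and the listed members outside this rule (atf4a, cdk1, cmlc1, crabp1a, dla, elovl4b, gclm, gng13b, junba, klf2a, lhx1a, mki67, neurod1, plk1, rx2, slc16a9b, slc1a2b, sncgb, tbx2b and tnnt2a) were chosen after their values were seen. Of 39 named genes with several probe sets, 30 had the same sign of ethanol change in all. No genome or sequence was used. Alternatives were pseudocounts of 1 and 16, no filter, a 70th percentile filter, median centring, quantile normalization, the treatment characteristic as label, every probe set, leaving out each array, the upper 30% and log2 of hpf.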

Additional observations from a re-analysis of the deposited data

Results flagged for a closer look

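The slope on hpf differed between the ethanol and control arms, by the limma fit over 9 arrays at an adjusted p of 0.05, for 8 named genes. The values are differences in log2 units per 12 hours, and positive ones are steeper under ethanol: nkx2.2a 1.69, cebpb 1.55, mknk2b 1.51, ptgs2a 1.40, ppp1r15a 1.36 and pim2 1.35. The differences of sat1a.2 and tmem69 were -1.03 and -1.30. None of the 8 was called with the treatment characteristic as label, and none without the 48 hpf ethanol array. For mknk2b, ppp1r15a and sat1a.2 the called probe set was not the brightest of the gene; the brightest gave differences of 0.60, 0.89 and -0.87, with adjusted p of 0.44, 0.092 and 0.073 (limma). On their brightest probe sets the kinase gene mknk2b and the eIF2alpha phosphatase partner ppp1r15a read 74.4 and 268 at 36 hpf and 210 and 714 at 48 hpf under ethanol, against 51.7 and 134 and then 48.8 and 229 in the controls.

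The floor plate factor foxa2 rose under ethanol and fell in the controls between 36 and 48 hpf, the only named gene of 8172 counted in opposite directions. That it stands alone depends on the cutoffs. At 36 hpf in the controls foxa2 read 43.1, just above that array's median of 40.5. The genes nkx2.2a and lhx5 also went up under ethanol and down in the controls, but each missed the count in an arm. The ethanol change of foxa2 exceeded its control change by 2.47 log2 units, and with 1 array per condition this difference was not tested. Over all 9 arrays the slope difference of foxa2 was 1.00 (limma adjusted p = 0.22).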

How the results depend on the processing

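No paired analysis was possible because each group has 1 array. The counts of rising and falling probe sets, of gaps between the arms and of 7 gene lists were recomputed under 7 listed alternatives and 1 added after seeing the data, which put the 30 hpf arrays in place of the 36 hpf ones. Counts not given here stayed within 1.5 times the value in the report. The cause of the shifts was not tested, except that a stricter filter keeps fewer probe sets by construction. A pseudocount of 16 left 120 ethanol falls, 109 control falls and 1 stress gene rising in the controls. Without a filter on dim probe sets, 624 rose in the controls, 516 and 590 had an ethanol change above or below the control change by at least 1 log2 unit, and 11 phototransduction genes rose under ethanol, 20 in the controls, with 4 stress genes rising there. Above the 70th percentile, 246 rose and 117 fell under ethanol, 217 and 104 in the controls, and the gaps were 196 and 155. There 2 phototransduction, 10 inner retinal, 0 muscle, 6 brain and 8 stress genes rose under ethanol, and 12 muscle and 1 stress gene in the controls. Centring each array on its median turned the share of rises among the ethanol calls from 70% to 58.91%, left 1 stress gene rising and gave 17 cell cycle falls in the controls. Quantile normalization left 1 stress gene rising in the controls. With the treatment characteristic as label, 713 rose and 380 fell under ethanol, 298 fell in the controls, and the gaps were 898 and 660. Then 7 muscle and 17 brain genes rose and 23 cell cycle genes fell under ethanol, and 2 cell cycle genes fell in the controls. The median ethanol change of all probe sets was then 0.10. From 30 hpf, 503 fell under ethanol, 877 rose and 428 fell in the controls, 533 gaps favoured the controls, and 19 inner retinal, 31 neuronal and 5 brain genes rose there. Cell cycle falls were then 22 and 30, and atoh7 was reversed, at 0.58 under ethanol. Counting every probe set of a gene gave 22 neuronal rises in the controls. The direction in which phototransduction, muscle, brain and stress counts differed between the arms held in all of these settings. Inner retinal rises were fewer under ethanol (11 against 13) with the characteristic as label, and the neuronal and cell cycle counts changed order in several settings. Of the 145 genes named in the report that could be followed, 118 kept their side of the ethanol count with the labels exchanged and 123 from 30 hpf.

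Ethanol slopes called upward numbered 1578 without a filter, 455 with the characteristic as label and 441 in the upper 30% by mean, and downward 389 and 862 in the latter 2 settings. Leaving out 1 array at a time gave 3 to 1145 upward and 0 to 1415 downward, lowest without the 48 hpf ethanol array. Slope differences called upward numbered 2 on log2 of hpf, 26 with median centring, 0 without a filter, 3 and 16 with pseudocounts of 1 and 16, 12 with quantile normalization and 0 with the characteristic as label. Those called downward numbered 0, 7 and 0 without a filter, with a pseudocount of 16 and with the characteristic. Leaving out 1 array gave 0 to 11 upward and 0 to 5 downward. Signals near background limit the opsin and late phototransduction values.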

Other observations

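Skin and corneal genes were largely level over the interval. Of 48 measured periderm, cornea and skin genes, 2 rose under ethanol, the keratins krt94 and krt1-19e, and the list median was 0.12 under ethanol and 0.01 in the controls. Over all named genes 3.43% rose under ethanol. The transglutaminase gene tgm1l4 fell by 1.71 under ethanol, from 76.6 to 19.9, and fell by 1.26 in the controls, from 122 to 48.2. Of 18 alcohol and aldehyde metabolism genes none rose and 2 fell under ethanol: the mitochondrial aldehyde dehydrogenase aldh2.2, from 446 to 205 (controls 377 to 287), and the proline breakdown enzyme aldh4a1, from 56.9 to 21.2 (controls 41.4 to 17.8). Over all 9 arrays the slope of aldh2.2 under ethanol was -0.57 log2 units per 12 hours (limma adjusted p = 0.029), and its difference from the control slope was -0.40 (adjusted p = 0.48). The gene was named for its fall on arrays that also enter this fit, so a falling ethanol slope was favoured in advance.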
